A study of Homo sapiens with 30 samples.

Results

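The heat shock chaperone genes described here are 10 genes: HSP90AA1, HSP90AB1, HSPA8, HSPA5, HSPA9, HSPD1, HSPE1, HSPH1, DNAJB1 and HSF1. They were looked up by symbol among the 20367 gene symbols of a PRO-Seq table. 9 of the 10 had a row, and 8 of the 10 were tested, because they had a mean of at least 10 reads both near the promoter and in the gene body, as had 11171 genes in all. HSPE1 had no row, and HSF1 had a row in which the promoter-proximal window was listed at 0 reads in all 9 samples.

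Molecular chaperones hold or refold other proteins. The HSP90 and HSP70 families work in the cytosol with co-chaperones of the J-domain and nucleotide-exchange types, HSPA5 (BiP) serves the endoplasmic reticulum, and HSPA9, HSPD1 (HSP60) and HSPE1 (HSP10) serve mitochondria. Heat shock factor 1, encoded by HSF1, binds heat shock elements in the promoters of many of these genes, and heat shock genes are the textbook case of a polymerase that starts, stops shortly after the promoter and waits for release. MYC is a transcription factor that binds E-boxes (CACGTG) with its partner MAX and is known for promoting that release.

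The cells were G401, a malignant rhabdoid tumor line that lacks SNF5 (SMARCB1), a core subunit of the SWI/SNF chromatin remodeling complex. They were transduced with lentiviruses carrying a TET-inducible EGFP (control), OmoMYC (OMOMYC in the labels, a dominant-negative form of MYC) or SNF5, selected with G418, and all 3 groups received 1 µg/ml doxycycline for 24 h. PRO-Seq, which maps transcriptionally engaged RNA polymerase, and ATAC-Seq, which maps open chromatin, were done in 3 samples per construct, and MYC ChIP-Seq in 2. All samples came from 1 cell line, and the labels do not say whether replicates were separate transductions, so p-values measure the spread between these samples only. As a check of the labels, SMARCB1 had 1 to 6 gene body reads in the EGFP samples, 2 to 5 in the OmoMYC samples and 2870 to 4467 in the SNF5 samples.

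The starts of these genes hold letters that match known regulatory elements, and the stretches that matter for the results below are printed here 5′ to 3′ on the strand of the gene, from RefSeq on GRCh38.p14, without exonic bases unless the site is 30 bases or shorter. Capitals mark a heat shock element (GAA, TTC and GAA, each 2 bases apart, or the reverse complement), an endoplasmic reticulum stress element (CCAAT and CCACG with 9 bases between) or an E-box (CACGTG). The heat shock element was present in 0.490% of the 35116 RefSeq promoter windows, the stress element in 0.0769% and the E-box in 7.26%, each searched on both strands from 250 bases before to 50 after the start.
HSP90AA1 upstream, chr14:102087045-102087294, minus strand: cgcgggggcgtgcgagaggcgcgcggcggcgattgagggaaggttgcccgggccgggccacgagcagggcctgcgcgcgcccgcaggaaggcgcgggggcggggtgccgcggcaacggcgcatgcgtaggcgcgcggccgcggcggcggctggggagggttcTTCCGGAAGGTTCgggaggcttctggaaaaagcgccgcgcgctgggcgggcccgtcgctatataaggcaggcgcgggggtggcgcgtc
HSP90AB1 first intron, chr6:44247693-44247865, plus strand: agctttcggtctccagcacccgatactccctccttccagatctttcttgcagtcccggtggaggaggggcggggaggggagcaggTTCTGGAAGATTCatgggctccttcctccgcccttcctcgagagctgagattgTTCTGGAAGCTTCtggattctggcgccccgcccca
HSPA5 upstream, chr9:125241383-125241593, minus strand: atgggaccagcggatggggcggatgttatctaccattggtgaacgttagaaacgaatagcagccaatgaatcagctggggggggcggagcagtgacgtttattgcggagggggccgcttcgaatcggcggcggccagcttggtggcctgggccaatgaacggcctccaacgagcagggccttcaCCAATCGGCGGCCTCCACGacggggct
HSPA8 distal element, chr11:123062346-123062374, minus strand: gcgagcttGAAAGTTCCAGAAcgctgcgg
HSPA8 proximal element, chr11:123062171-123062199, minus strand: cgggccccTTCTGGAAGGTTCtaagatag
HSPD1 element, chr2:197500060-197500088, minus strand: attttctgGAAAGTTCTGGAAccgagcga
HSPA9 E-box, chr5:138575403-138575432, minus strand: cgcccctcacccCACGTGgttggaggtttc
HSPE1 and HSPD1 E-box, chr2:197500345-197500374, plus strand: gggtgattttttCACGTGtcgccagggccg

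Windows of 9 of the 10 genes were searched, and HSF1 was not searched. Heat shock element letters were found in windows of 4 of the genes. The HSPH1 window was set at a RefSeq start far upstream of the canonical start and did not reach the canonical start. The 101 bases around the HSPH1 MYC summit, upstream of and near the canonical start, hold heat shock element letters and an E-box. The lack of a match in the HSPH1 window therefore says nothing about the canonical start. In HSP90AA1 the match ran from base -88 to -76, and HSPA8 held 2 matches, at -230 to -218 and -55 to -43. In HSP90AB1 both matches stood in the window of a RefSeq start that lies 842 bp downstream of the main start, which places them in the first intron. In HSPD1 the 2 matches overlapped, at -245 to -233 and -240 to -228, and the second of them is the one in capitals. Of the windows searched for these 9 genes, the stress element stood only in that of HSPA5, at -66 to -48.

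HSPD1 and HSPE1 are divergent neighbours, and they share an E-box. It lies at bases -22 to -17 of HSPE1 and -88 to -83 of the upstream HSPD1 start, at the same 6 bases of chromosome 2 (197500357 to 197500362). HSPA9 held an E-box at -19 to -14. None of the windows of the 9 genes held TATAAA, which was present in 11.5% of all windows, and a missing match says only that these letters were not in the window.

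MYC ChIP-Seq peaks were found at the starts of 9 of the 10 genes in at least 1 EGFP sample, and HSPA5 was the exception. A peak was counted when its summit lay within 1 kb of the start of the canonical transcript. In both EGFP samples, 5 of the 10 genes had one, beside 7.54% of the tested genes that could be placed (826 of 10950). In at least 1 EGFP sample, 40.1% of the tested genes had one. These 5 genes stand for 4 promoters, because HSPD1 and HSPE1 shared their peaks. The count fell to 2 with summits within 250 bp (4.23% of tested genes) and to 1 with a −log10 q of at least 10 (2.05%), and in EGFP replicate 2 alone it was 9 (40.1%).

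HSF1, the transcription factor of the family, had a fold enrichment over local background of 6.47 in EGFP replicate 1. In EGFP replicate 2 it had 11.2, the highest of the 10 genes there. Both HSF1 summits lay upstream of its start. Of the 101 bases around the replicate 2 summit, 48 lay in exons, although these bases end before the HSF1 start. Whether the HSF1 peaks belong to HSF1 or to a neighbouring gene was not tested. HSP90AB1, the constitutive cytosolic HSP90, had 6.96 and 9.20, the highest in replicate 1, with the summits 266 and 372 bp downstream of the start, inside the first intron. The mitochondrial genes were bound as well. HSPA9 (mortalin, the mitochondrial HSP70) had 5.42 and 8.81, with the summits 26 bp upstream and 1 bp downstream of the start, and the peak shared by HSPD1 and HSPE1 had 6.47 and 8.39.

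HSP90AA1 (6.11), HSPH1 (5.90), HSPA8 (4.77) and DNAJB1 (4.71) had a peak in EGFP replicate 2 only. That sample listed 5396 peaks and EGFP replicate 1 listed 940, so the difference between the lists moves with the number of peaks called, and its part in these absences was not tested. The summit of HSP90AB1 in EGFP replicate 2 stood 1 bp from the middle of an E-box, shown in capitals in the 101 bases around the summit (GRCh37, plus strand).
HSP90AB1 summit, chr6:44215160-44215260: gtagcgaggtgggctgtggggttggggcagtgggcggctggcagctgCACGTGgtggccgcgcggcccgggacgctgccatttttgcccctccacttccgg

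Of the other summits, an E-box stood 3 bp from the HSF1 summit of replicate 1, 9 bp from the HSPH1 summit, 10 and 17 bp from the HSPA9 summits, 15 bp from the HSPA8 summit and 58 bp from the HSPD1 and HSPE1 summit of replicate 1. No E-box lay within 100 bp of the summits at HSP90AA1 and DNAJB1, of the HSP90AB1 summit of replicate 1, or of the replicate 2 summits at HSF1 and at HSPD1 and HSPE1. The HSPA9 site is the one printed among the promoter sequences.

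In the SNF5 samples, 0 of the 10 genes had a MYC peak, and 1.15% of the tested genes had one in at least 1 SNF5 sample. The SNF5 lists were short, with 137 and 27 peaks, and the OmoMYC lists held only a placeholder line, so 0.00% of all tested genes had a peak there. The lists give no read counts, so a smaller amount of MYC at a member and a peak that missed the calling threshold cannot be told apart.

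**Figure D1:**
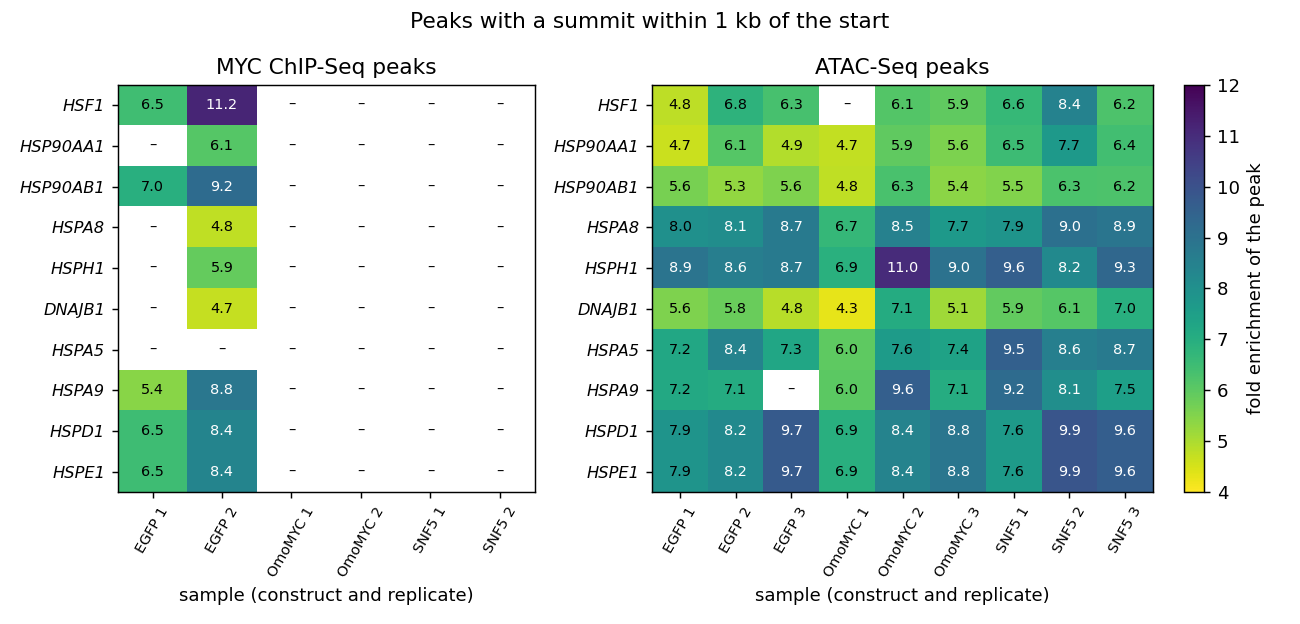
Fold enrichment of the peak with a summit within 1 kb of each gene's start (rows) in each sample (columns), for MYC ChIP-Seq at left and ATAC-Seq at right; a dash marks no peak. MYC peaks appear only in EGFP columns, from 4.71 to 11.2, and ATAC-Seq peaks fill all but 2 of the cells.

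Chromatin at the same starts was open with every construct. In the SNF5 samples all 10 genes had an ATAC-Seq peak in every sample, where 71.5% of tested genes had one. In the EGFP samples 9 of 10 had one in every sample (51.7% of tested genes), and HSPA9 lacked it in EGFP replicate 3. In the OmoMYC samples 9 of 10 had one in every sample (46.8% of tested genes), and HSF1 lacked it in OmoMYC replicate 1, the sample with the shortest list (7260 peaks). HSPD1 and HSPE1 shared their ATAC-Seq peak in every sample, so the same peak counts for both genes. Narrower rules lowered some of these counts. Within 250 bp of the start, 6 genes had a peak in every SNF5 sample (56.5% of tested genes) and 5 in every OmoMYC sample (36.1%), and with a −log10 q of at least 10, 5 had one in every EGFP sample (28.9%).

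HSPH1, the HSP110 that exchanges nucleotide on HSP70, had among the strongest openings, with a fold enrichment of 8.92, 8.56 and 8.69 in the EGFP samples, 6.92, 11.0 and 8.97 in the OmoMYC samples and 9.59, 8.21 and 9.34 in the SNF5 samples. The groups overlapped. HSPA5, which had no MYC peak, had 7.20, 8.41 and 7.25 in EGFP, 5.98, 7.61 and 7.40 in OmoMYC and 9.54, 8.56 and 8.69 in SNF5. Its 3 SNF5 values were all above its EGFP and OmoMYC values. The same held for HSP90AA1, which had a MYC peak, with 6.50, 7.70 and 6.42 in SNF5. HSP90AA1 had 4.65, 6.10 and 4.94 in EGFP and 4.73, 5.95 and 5.58 in OmoMYC. How many of all tested genes were separated in this way was not counted. The SNF5 lists also held the most peaks within each replicate number. An exact permutation test of 3 samples against 3 cannot give a two-sided p under 0.10. DNAJB1 had the lowest value of all, 4.28 in OmoMYC replicate 1.

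PRO-Seq counts near these promoters and in their gene bodies rested on 28444943 to 46957634 gene body reads per sample. Promoter-proximal totals were far more uneven, with 518900 to 672874 reads in the replicate 1 samples and 2027512 to 3386528 in the others. The gap fell on all 3 constructs alike. Samples with the same replicate number deviated together, so the replicate number was a block in all tests. These are bulk libraries, in which fewer cells that transcribe a gene and less transcription per cell cannot be told apart.

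In the EGFP samples most of these genes were transcribed at a high level. The gene body density, in reads per kb and per 1000000 scaled gene body reads of the sample, ranked HSPA8, the constitutive cytosolic HSP70, first with 37.8 ± 2.00 (SD, n = 3), above 99.4% of the tested genes. HSP90AB1 followed with 24.98 ± 2.74, above 98.6%. HSPD1 (14.2 ± 1.35), HSPA5 (13.5 ± 1.09), DNAJB1 (11.3 ± 0.981) and HSPA9 (10.1 ± 0.958) came next, and of these neighbours HSPD1 and HSPA5 lay within 1 SD of each other. HSPH1 (4.76 ± 0.198) and HSP90AA1 (3.90 ± 1.08) were lowest and also within 1 SD. The median of all tested genes was 1.88.

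The HSP90AA1 value needs a limit. Its row uses a transcript (NM_001017963) whose start lies 52705 bp upstream of the main start, so the promoter-proximal window did not cover the main start and the gene body took it in. For other members the distance from the start of the row to the canonical start was 8 to 434 bp. Copies of at least 200 bp elsewhere in GRCh37 were found for 7 of the 9 genes with a row, from 2 places for HSPA5 to 12 for HSPD1, with up to 99.0% identity for HSPD1. Reads of low mapping quality had been removed, so reads shared with such copies may be missing, and counts of these 7 genes are uncertain to that extent. HSPH1 and HSF1 had 0 such copies.

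The pausing index, the read density of the 50 bp promoter-proximal window divided by that of the gene body, did not mark all members as paused more than other genes. Its mean over the EGFP samples was highest for HSPH1 (69.6, above 76.9% of tested genes), HSPA5 (44.5, above 64.5%), HSP90AB1 (36.1, above 58.0%) and DNAJB1 (29.9, above 51.5%). It was below the median of all tested genes (28.7) for HSP90AA1 (14.5), HSPD1 (13.6), HSPA9 (8.39) and HSPA8 (6.59). Thus 4 of 8 members stood above the median, which is the share that a median gives by definition. This count does not set the members apart as classic paused genes. For promoter-proximal reads in EGFP, all 8 stood above the median of all tested genes. HSPA8, with the lowest index, stood above 91.7% of tested genes there and above 99.4% in gene body density. HSP90AA1 is counted below the median of the index and among these 8, but its window did not cover its main start.

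The index was spread widely over replicate numbers. HSPA5 had 5.88, 85.3 and 42.2 in EGFP replicates 1 to 3, 13.2, 265 and 49.0 in the OmoMYC samples and 9.41, 140 and 46.2 in the SNF5 samples. Replicate 1 was lowest for each construct, and within every replicate number the OmoMYC and SNF5 values were above the EGFP value. HSPD1 had 1.11, 25.1 and 14.5 in EGFP, 1.81, 55.1 and 18.2 in OmoMYC and 1.37, 38.0 and 18.2 in SNF5, again with both constructs above EGFP within each number. HSPA8 had 5.45, 8.54 and 5.79 in EGFP, the lowest mean of the 8 genes there, although HSPD1 and HSPA9 (3.14) were lower in replicate 1.

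**Figure D2:**
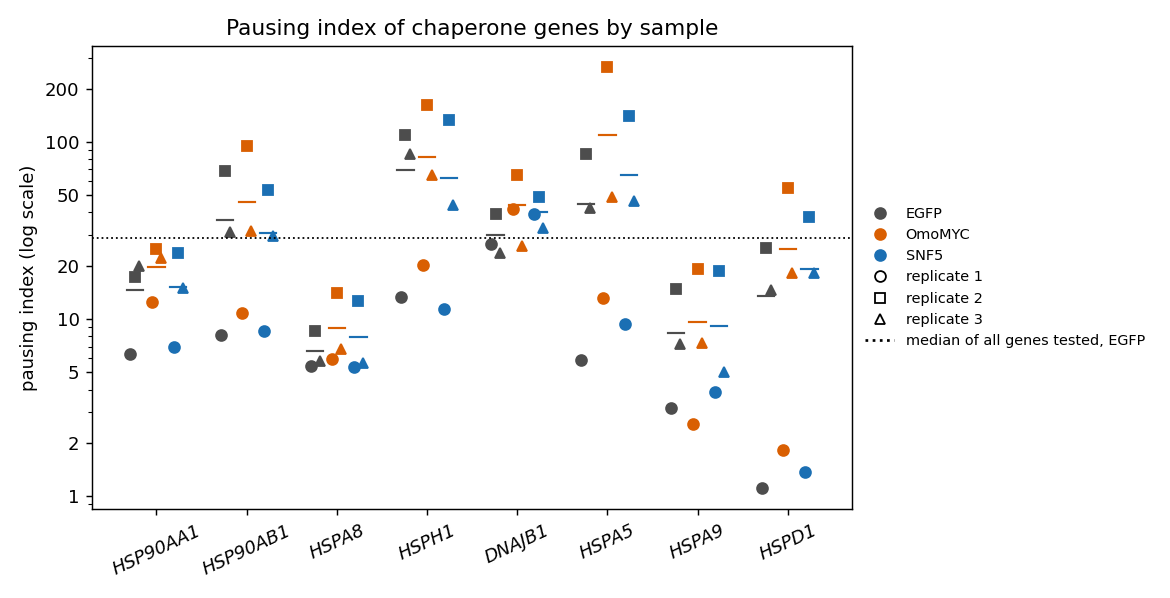
Pausing index (log axis) of the 8 tested genes in the 9 PRO-Seq samples, colored by construct and shaped by replicate number, with a short bar at the mean of each construct. The dotted line is the median of all tested genes in EGFP (28.7); for 7 of the 8 genes, all but DNAJB1, the replicate 1 samples (circles) lie lowest in each construct.

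OmoMYC was compared with EGFP to see how direct inhibition of MYC moved polymerase on these genes. Gene body reads fell at 4 of the 8 tested genes and rose at 0, beside 5.59% of all tested genes that fell and 6.36% that rose. The 4 were HSP90AB1, HSPA8, HSPA5 and HSPD1, one or more from each compartment. The median log2 fold change over the 8 genes was -0.31, and over all tested genes it was -0.0043. The change was negative for 7 of 8.

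HSPA8 had a gene body density of 40.1, 36.3 and 36.97 in EGFP, 29.6, 27.0 and 32.1 in OmoMYC and 35.5, 36.3 and 34.3 in SNF5. All OmoMYC samples lay below all EGFP and SNF5 samples. The log2 fold change of OmoMYC against EGFP was -0.35 ± 0.069 (SE; adjusted p = 0.0235, edgeR quasi-likelihood test with Benjamini-Hochberg adjustment over 11171 genes).

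HSP90AB1 had a density of 24.9, 22.3 and 27.8 in EGFP, 19.2, 16.6 and 23.1 in OmoMYC and 25.2, 24.0 and 26.5 in SNF5. OmoMYC was lowest within each replicate number, although its replicate 3 reached into the EGFP range. The log2 fold change was -0.35 ± 0.066 (adjusted p = 0.0227, same edgeR test).

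HSPD1, the mitochondrial chaperonin, had a density of 13.9, 15.7 and 13.1 in EGFP, 9.73, 9.76 and 12.2 in OmoMYC and 12.7, 13.9 and 12.3 in SNF5. The OmoMYC samples lay below all others, and the log2 fold change was -0.42 ± 0.10 (adjusted p = 0.0363, edgeR). HSPA5 had 13.1, 12.7 and 14.7 in EGFP, 10.4, 8.60 and 13.0 in OmoMYC and 10.9, 9.77 and 13.1 in SNF5. Both constructs were below EGFP within each number but overlapped it across numbers. Its log2 fold change with OmoMYC was -0.35 ± 0.072 (adjusted p = 0.0249, edgeR).

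The other 4 genes did not pass the test with OmoMYC. DNAJB1, the J-domain partner that delivers clients to HSP70, had a log2 fold change of -0.27 ± 0.080 (adjusted p = 0.0559, edgeR), and its OmoMYC samples (9.50, 9.55 and 8.97) lay below its EGFP samples (10.2, 12.1 and 11.6). The values were -0.14 for HSP90AA1, -0.11 for HSPA9 and 0.02 for HSPH1, with edgeR adjusted p-values of 0.132, 0.307 and 0.904. The sign of HSPH1 turned with the filter on low counts and with left-out samples.

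Each of these 4 OmoMYC calls was lost when replicate number 1 or 2 was left out, or when the EGFP or OmoMYC sample of either number was. HSPD1 was also lost without SNF5 replicate 1 or 2. Where a call was lost, the edgeR adjusted p was 0.146 to 0.390 for HSP90AB1, 0.146 to 0.395 for HSPA8, 0.152 to 0.389 for HSPA5 and 0.0544 to 0.420 for HSPD1, while the log2 fold change kept its sign (-0.29 to -0.42, -0.29 to -0.44, -0.25 to -0.45 and -0.29 to -0.60 over the 12 leave-outs). Nearly all genes lost their calls in the fits in which all 4 were lost, which called 0.0179% to 0.0537% of tested genes in either direction, so the loss is not particular to these genes. Without replicate 3, 7 of the 8 members passed, beside 50.4% of tested genes.

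SNF5 was compared with EGFP to see how return of the missing subunit moved polymerase on these genes. Gene body reads fell at 2 of the 8 genes, DNAJB1 and HSPA5, and rose at 0, beside 14.6% of tested genes that fell and 15.5% that rose. Against that background, 2 of 8 is not read as particular to these genes. The median log2 fold change over the 8 was -0.14, and over all tested genes -0.023.

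DNAJB1 had a density of 10.2, 12.1 and 11.6 in EGFP and 8.41, 9.08 and 9.15 in SNF5, with no overlap, and a log2 fold change of -0.35 ± 0.079 (adjusted p = 0.0130, edgeR). HSPA5 had a log2 fold change of -0.27 ± 0.072 (adjusted p = 0.0235, edgeR). DNAJB1 lost its call without replicate number 1 or 2, EGFP replicate 2, or SNF5 replicate 1 or 2 (adjusted p 0.0560 to 0.173, edgeR), and HSPA5 without those and without EGFP replicate 1 (adjusted p 0.0803 to 0.185, edgeR). The fits that lost one of these calls called 6.81% to 18.0% of tested genes in either direction. Without replicate 3, 6 of the 8 genes passed, beside 55.4% of tested genes.

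The remaining genes did not pass with SNF5. HSPA9 had a log2 fold change of -0.18 ± 0.067 and HSP90AA1 of -0.16 ± 0.059, with edgeR adjusted p-values of 0.0710 and 0.0764. HSPD1 (-0.13 ± 0.10) and HSPA8 (-0.09 ± 0.069) had adjusted p-values of 0.357 and 0.326 in the same edgeR test. HSP90AB1 (0.02 ± 0.065, adjusted p = 0.845) and HSPH1 (0.13 ± 0.092, adjusted p = 0.317) were the members with positive values in edgeR, and the HSP90AB1 sign turned without the count filter.

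**Figure D3:**
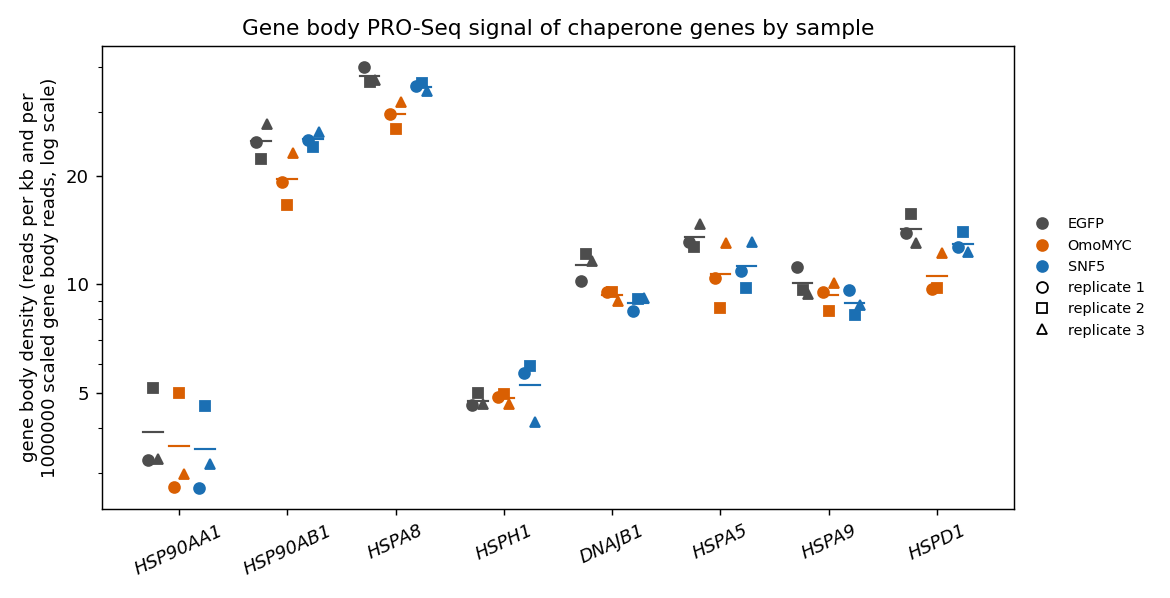
Gene body density (reads per kb and per 1000000 scaled gene body reads, log axis) of the 8 tested genes in the 9 PRO-Seq samples, colored by construct and shaped by replicate number, with a short bar at the mean of each construct. For HSPA8 and HSPD1 all OmoMYC points lie below all EGFP and SNF5 points, for HSPD1 by little in replicate 3.

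SNF5 and OmoMYC were then compared directly, with the EGFP samples entering only through the shared estimates of spread and block. The comparisons with EGFP share their 3 control samples, so they are given side by side. Gene body reads were higher with SNF5 than with OmoMYC at 2 of 8 genes, HSP90AB1 and HSPA8, and lower at 0, beside 9.05% of tested genes that were higher and 6.64% that were lower. HSP90AB1 differed by a log2 value of 0.37 ± 0.066 (adjusted p = 0.00713, edgeR), and its 3 SNF5 samples lay above its 3 OmoMYC samples. HSPA8 differed by 0.26 ± 0.069 (adjusted p = 0.0374, edgeR), also with no overlap. HSPD1 differed by 0.29 ± 0.10 and did not pass (adjusted p = 0.0868, edgeR). Its groups were separated, but by little, with densities of 12.24 in OmoMYC replicate 3 and 12.29 in SNF5 replicate 3. How many of all tested genes had groups without overlap was not counted for any comparison. For the other members the difference ran from -0.08 to 0.11.

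The HSP90AB1 difference was lost without replicate number 1 or 2 or the OmoMYC sample of either (adjusted p 0.0519 to 0.126, edgeR). The HSPA8 difference was lost without any sample of replicate number 1 or 2 (adjusted p 0.0609 to 0.348, edgeR), and also when the EGFP samples were left out of the fit (adjusted p = 0.0723). The fits without samples that lost one of these differences called 2.89% to 12.4% of tested genes in either direction.

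Promoter-proximal reads passed the test at 0 of 8 genes in all 3 comparisons. Of all tested genes, 2.35% passed with OmoMYC against EGFP, 4.26% with SNF5 against EGFP and 0.689% with SNF5 against OmoMYC, in either direction. An unadjusted p under 0.05 was reached by 1 gene with OmoMYC and by 0 in the other comparisons, and DESeq2 gave 0 members as well. Fold changes are given as fitted, with no median subtracted. The median of all tested genes was 0.15 (log2) with OmoMYC against EGFP and 0.0034 with SNF5 against EGFP. Both regions were scaled by gene body reads, which keeps a shift shared by most promoters. Scaling each region by its own reads takes out such a shift by design, and the median with OmoMYC was then -0.029. The source of the shift was not tested.

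HSPA5 was the gene with the unadjusted p under 0.05. It had 130, 1507 and 1373 promoter-proximal reads in EGFP, 226, 3068 and 1408 in OmoMYC and 195, 2186 and 1253 in SNF5. OmoMYC exceeded EGFP in raw reads within each number, and by little in replicate 3. The log2 fold change with OmoMYC was 0.65 ± 0.23 (adjusted p = 0.132, edgeR), and with SNF5 it was 0.21 ± 0.23 (adjusted p = 0.658, edgeR). HSPD1 had 0.31 ± 0.22 and 0.30 ± 0.22 (adjusted p = 0.512 and 0.489, edgeR). Over the 8 genes the values with OmoMYC ran from -0.06 to 0.65 and with SNF5 from -0.20 to 0.30.

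The pausing index rose with OmoMYC at 1 of 8 genes, HSPA5, and fell at 0, beside 1.94% of tested genes that rose and 0.0716% that fell. HSPA5 changed by a log2 value of 1.00 ± 0.23 (adjusted p = 0.0135, edgeR), with fewer gene body reads and more promoter-proximal reads in each replicate number. The call was lost without replicate number 2, without EGFP replicate 2, or without OmoMYC replicate 1 or 2 (adjusted p 0.107 to 1.00, edgeR), and over the 12 leave-outs the value ran from 0.67 to 1.42. Those 4 fits called 0 to 44 of the 11171 tested genes. With each region scaled by its own reads the HSPA5 value was 0.80 (adjusted p = 0.0226, edgeR).

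All 8 genes had a positive pausing index change with OmoMYC, with a median of 0.43, where the median of all tested genes was 0.14. The share of all tested genes with a positive change was not counted. The 8 include HSP90AA1, whose window did not cover its main start. Over the 19 alternative fits the sign was kept in 14 for HSPA9, in 18 for HSPH1 and in all for the other genes. With each region scaled by its own reads the medians were 0.23 and -0.040, 7 of 8 stayed positive and HSPA9 turned negative (-0.0975). That scaling takes out a shift shared by most genes by design. It split the tested genes that passed into 101 higher and 74 lower, in place of 217 and 8. HSPD1 had 0.73 ± 0.24 (adjusted p = 0.0800, edgeR) and DNAJB1 0.50 ± 0.22 (adjusted p = 0.237, edgeR), so neither passed.

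With SNF5 against EGFP, 0 of 8 genes passed for the pausing index, beside 3.65% of tested genes in either direction. An unadjusted p under 0.05 was reached by 2 genes, and DESeq2 called 0. HSPA5 had 0.50 ± 0.23 (adjusted p = 0.225), DNAJB1 0.44 ± 0.22 (adjusted p = 0.257) and HSPD1 0.43 ± 0.23 (adjusted p = 0.322) in edgeR. With SNF5 against OmoMYC, 0 of 8 passed (1.15% of tested genes did), 2 had an unadjusted p under 0.05, and all 8 values were negative, from -0.54 to -0.03, where the median of all tested genes was -0.13. With each region scaled by its own reads, 6 of the 8 were negative. Here too HSP90AA1 is among the 8, and the share of all tested genes with a negative change was not counted.

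**Figure D4:**
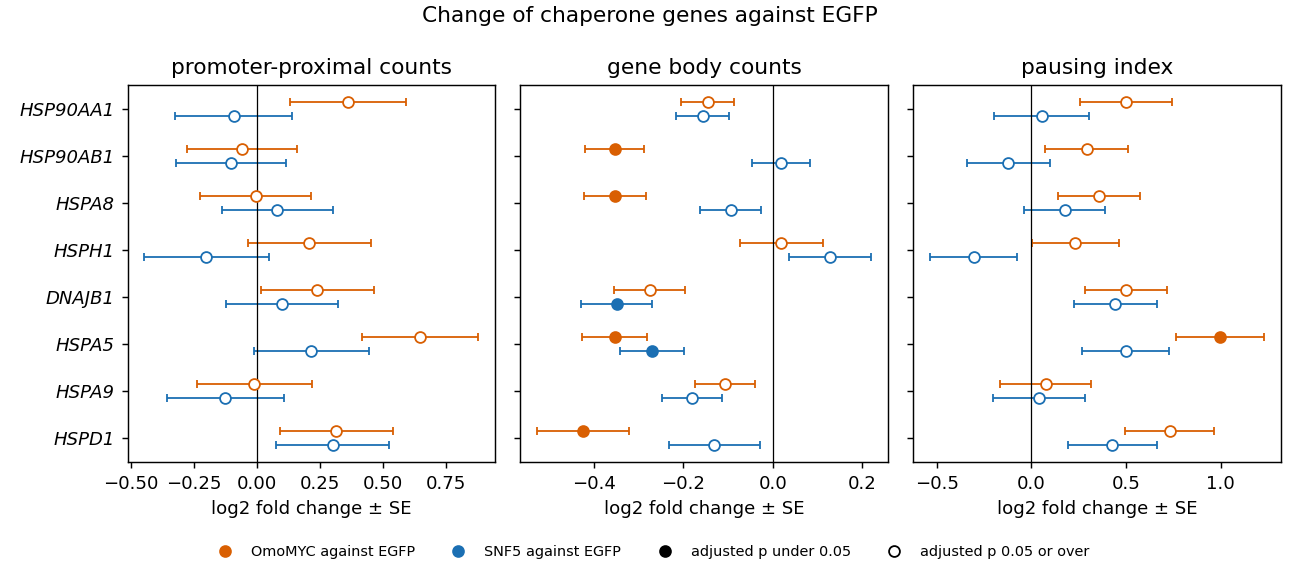
Log2 fold change ± SE of promoter-proximal reads, gene body reads and the pausing index for the 8 tested genes, OmoMYC against EGFP in orange and SNF5 against EGFP in blue; filled points have an edgeR adjusted p under 0.05. Filled points are the 4 OmoMYC and 2 SNF5 gene body values and the HSPA5 pausing index with OmoMYC.

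HSPE1 and HSF1 could be followed only in part. The start of HSPE1 lay 382 bp from that of the read-through transcript HSPE1-MOB4, whose row had 294, 2173 and 2320 promoter-proximal reads in EGFP, 471, 2275 and 1258 in OmoMYC and 486, 2070 and 1016 in SNF5. In both constructs replicate 1 was higher than EGFP and replicate 3 lower, and the row cannot tell HSPE1 from the read-through transcript. HSF1 had 188 gene body reads over the 9 samples and its neighbour BOP1 had 150, and both were listed at 0 near the promoter. HSF1 also had MYC and ATAC-Seq peaks at its start, so its level is not read from this table.

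Other chaperone genes were followed in 8 lists of 75 genes, of which 63 were tested. With SNF5 against EGFP, gene body reads rose at 4 of the 63 and fell at 13, beside 15.5% and 14.6% of all tested genes. Among the 4 is HSPB8, which met the count filter only through its SNF5 samples. The fallen genes were 4 of 13 endoplasmic reticulum chaperones and folding enzymes, 4 of 15 co-chaperones of HSP90 and HSP70, 2 of 9 mitochondrial chaperones and proteases, 1 of 14 J-domain genes, 1 of 2 HSP90 family genes and 1 of 2 heat shock factors and regulators. With OmoMYC against EGFP 5 of the 63 rose and 8 fell, beside 6.36% and 5.59% of all tested genes, and 4 of the 8 were among the 15 co-chaperones. Small heat shock proteins had 0 of 4 that fell in either comparison, and cytosolic HSP70 and HSP110 genes likewise had 0 of 4. Members and lists share the EGFP samples.

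Of the small heat shock proteins, HSPB8, which works with BAG3, rose most with SNF5. It had 9, 19 and 4 gene body reads in EGFP, 16, 36 and 7 in OmoMYC and 266, 307 and 397 in SNF5. HSPB8 changed with SNF5 by a log2 value of 4.87 ± 0.51 (adjusted p = 0.000416, edgeR) in the gene body and 6.48 ± 0.56 (adjusted p = 2.2e-11, edgeR) near the promoter, the second against EGFP counts of 1, 1 and 0. Against OmoMYC the HSPB8 gene body value was 3.97 ± 0.47 (adjusted p = 0.00112, edgeR). It was the only gene of these lists to pass near the promoter with SNF5, but it entered the tests through its SNF5 reads. Its promoter-proximal reads were 1, 10 and 2 in OmoMYC and 13, 129 and 85 in SNF5. The filter asked for a mean of 10 over all 9 samples, which HSPB8 reached near the promoter only because of SNF5. Its p-values with SNF5 are therefore not read as independent support.

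P4HB and PDIA4, protein disulfide isomerases of the endoplasmic reticulum, fell with SNF5 by 0.42 and 0.32 on the log2 scale (edgeR adjusted p = 0.00230 and 0.00512), and DNAJB4 rose by 0.41 (adjusted p = 0.00535). With OmoMYC, AHSA1, an activator of the HSP90 ATPase, fell by 0.39 (edgeR adjusted p = 0.0214), while DNAJB5 (0.61), DNAJB4 (0.40) and CLPB (0.29) rose with edgeR adjusted p-values of 0.0195, 0.0231 and 0.0232. SNF5 exceeded OmoMYC at 2 of the 63, HSPB8 and BAG3 (0.30), and was lower at SIL1 (-0.28) and PDIA4 (-0.21).

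The pausing index of these other genes rose with OmoMYC at 4 of 63, FKBP4 (0.94), DNAJB2 (1.12), CRELD2 (0.83) and DNAJA1 (0.78), and fell at 0, beside 1.94% and 0.0716% of all tested genes. With each region scaled by its own reads, which takes out a shared shift by design, 101 of all tested genes were higher and 74 lower. The edgeR adjusted p-values of the 4 genes ran from 0.0291 for FKBP4 to 0.0456 for DNAJA1. DNAJB2 (1.18) and BAG3 (0.79) also passed near the promoter with OmoMYC. In the other 2 comparisons 0 of 63 passed for the index.

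Among the genes that were not tested, the stress-inducible HSPA1A and HSPA1B were listed at 0 reads in both regions of all samples. HSPA1A and HSPA1B are near-identical copies, but HSPA1L, DNAJC7, BAG6, CRYAB, HYOU1 and MANF were listed at 0 too, so no level is read from such rows. HSPA6, another heat-inducible HSP70, had 504 promoter-proximal and 46 gene body reads over the 9 samples.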

How the data were processed

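PRO-Seq (9 samples), ATAC-Seq (9) and MYC ChIP-Seq (6) of G401 cells with induced EGFP, OmoMYC or SNF5 were analysed from the processed files, and the IgG samples were not used here. The authors aligned PRO-Seq reads to hg19 with Bowtie2 after trimming with cutadapt, removed reads of low mapping quality and ran NRSA to count reads for each RefSeq transcript. Raw counts of 2 regions, the densest 50 bp near the start and the gene body, were deposited, together with a gene body density signal in counts per bp. The deposited peak lists (MACS2, each sample alone, hg19 for MYC and hg38 for ATAC-Seq) give each peak's fold ratio to local background with its −log10 p and −log10 q, but no read counts per peak. The study lists the sequencing depth of those libraries elsewhere, which was not used here, so no interval is given for a peak.

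Counts were tested with edgeR 4.0.16 (quasi-likelihood test, limma 3.58.1) in R 4.3.3, with DESeq2 1.42.0 as an alternative. The filter kept 1 transcript of each symbol and asked for a mean count of 10 or more near the promoter and in the gene body. Both regions were scaled by the gene body total of the sample and an RLE factor from gene body counts, and densities are given per 1000000 reads of these scaled totals. Promoter-proximal and gene body tests used all 9 samples and held the replicate number as a blocking term. Change of the pausing index was tested as the interaction of region and construct, with a term per sample and the block. Across genes, deviations from the construct means correlated at 0.847 to 0.926 (gene body) and 0.692 to 0.865 (promoter-proximal) between samples of the same number, and at -0.774 to 0.248 and -0.646 to -0.0224 between others, so the numbers pair the samples. P-values were adjusted over all 11171 genes by the Benjamini-Hochberg method, at 0.05.

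Starts were those of GENCODE release 44 canonical transcripts in GRCh37 and, as the same annotation lists them, GRCh38 coordinates, and 10950 tested genes were placed, 1355 of them by RefSeq accession. No coordinate was converted. Copies were sought with minimap2 2.31. The fits were tested on simulated data.

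The 10 members and the 8 lists of other chaperone genes were chosen with earlier results of these data known. Named genes are the members, SMARCB1 as a check of the labels, and, of the lists in each comparison and measure, up to 4 that passed with the smallest adjusted p. HSPE1-MOB4, BOP1 and the genes listed at 0 were named after their values were seen. Alternatives were TMM factors, each region scaled by its own counts, DESeq2, other count filters, fits of only the 2 constructs compared, fits with no block, left-out samples and, for peaks, a distance of 250 bp and a −log10 q of at least 10. Python 3.11.15, pandas 2.3.3 and NumPy 2.4.6 were used.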

Additional observations from a re-analysis of the deposited data

Results flagged for a closer look

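At 2 genes the change of gene body reads against EGFP differed between SNF5 and OmoMYC by the test of the difference itself. Of all tested genes, 9.05% were higher with SNF5 than with OmoMYC and 6.64% were lower. HSP90AB1, the constitutive cytosolic HSP90, was higher with SNF5 than with OmoMYC by a log2 value of 0.37 (adjusted p = 0.00713, edgeR quasi-likelihood test with Benjamini-Hochberg adjustment), and SNF5 exceeded OmoMYC in 3 of 3 replicate numbers. HSPA8, the constitutive cytosolic HSP70, was higher by 0.26 (adjusted p = 0.0374, same edgeR test), also in 3 of 3. Over the 12 leave-outs, the HSP90AB1 call was lost in 4 and the HSPA8 call in 8. Among the promoters, HSP90AB1 had a MYC peak in both EGFP samples and HSPA8 in 1 of them.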

How the results depend on the processing

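Promoter-proximal and pausing index values rest on fewer reads than gene body values, and on fewest in replicate 1. Without the replicate block, 0 members passed for gene body reads in any comparison (2 with SNF5 against EGFP, 4 with OmoMYC against EGFP and 2 with SNF5 against OmoMYC with the block), and 0 passed for the pausing index with OmoMYC against EGFP (1 with the block); the block changed no other count of members. The signs and sizes of the 9 called values were similar without it (DNAJB1 -0.35 with SNF5, HSPA5 -0.26 with SNF5, HSP90AB1 -0.35, HSPA5 -0.34, HSPA8 -0.35 and HSPD1 -0.43 with OmoMYC, HSP90AB1 0.36 and HSPA8 0.26 between the constructs, and 0.88 for the HSPA5 index). All 9 called values stayed past the threshold with TMM factors, DESeq2, a mean of at least 50 counts and each region scaled by its own counts.

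Over the fits that left out samples, the number of members passing ran from 0 to 6 for gene body reads with SNF5 against EGFP, 0 to 7 with OmoMYC against EGFP and 0 to 4 with SNF5 against OmoMYC, while the share of all tested genes passing ran from 6.81% to 55.4%, 0.0179% to 50.4% and 2.89% to 42.2%. It ran from 0 to 3 for the pausing index with OmoMYC, 0 to 1 for the index with SNF5 and 0 to 1 for promoter-proximal reads with OmoMYC (all tested genes, 0.00% to 8.60%, 0.125% to 8.41% and 0.0269% to 9.73%). For gene body reads, 0 members came only in fits without samples of replicate 1 or 2, and the highest counts without replicate 3 or, between the constructs, also without SNF5 replicate 3. For the index with SNF5, 1 member passed only without EGFP replicate 3.

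With no filter beyond 1 count, 4 members passed for gene body reads with SNF5 against EGFP (29.5% of 16279 genes), HSP90AB1 turned to -0.025 and, with OmoMYC, HSPH1 turned to -0.0056, both uncalled. Over left-out samples the HSP90AB1 value with SNF5 ran from -0.039 to 0.085 and the HSPH1 value with OmoMYC from -0.046 to 0.099. With only the 2 constructs in the fit, 1 member passed between SNF5 and OmoMYC. The causes were not tested.

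MYC peaks in every EGFP sample stood at 2 of 10 genes within 250 bp (4.23% of tested genes), at 1 with a −log10 q of at least 10 (2.05%), and at 9 without replicate 1 (40.1%). ATAC-Seq peaks in every sample stood at 5 of 10 genes in EGFP with that −log10 q (28.9%), and within 250 bp at 6 in SNF5 (56.5%) and 5 in OmoMYC (36.1%).

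Over all tested genes, the number passing without the block was 1, 112 and 40 for gene body reads (OmoMYC against EGFP, SNF5 against EGFP, SNF5 against OmoMYC; 1334, 3365 and 1753 with it) and 0 for the other measures (225, 408 and 128 for the pausing index and 262, 476 and 77 near the promoter with it). DESeq2 gave 69, 102 and 40 for the index and 170, 301 and 49 near the promoter. Fits of 2 constructs gave 134, 183 and 369 for the index, 2208 for gene body reads with SNF5 against EGFP and 162 near the promoter between SNF5 and OmoMYC. With SNF5 against EGFP and between the constructs, the count near the promoter was 785 and 255 without the filter and 281 and 28 at a mean of 50, and gene body reads gave 2658 between the constructs without the filter. Each region scaled by its own counts gave 847 for the index and 1018 near the promoter with SNF5 against EGFP, and 127 near the promoter between the constructs. It moved the higher and lower calls to 365 and 482 (232 and 176 before) for the index with SNF5 against EGFP, 63 and 96 (16 and 112) for it between the constructs, and near the promoter to 131 and 121 (245 and 17) with OmoMYC, 503 and 515 (351 and 125) with SNF5 and 98 and 29 (51 and 26) between them.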
